A study of Mus musculus with 4 samples.

Results

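Granzymes are serine proteases that killer lymphocytes store in cytotoxic granules, together with the pore-forming protein perforin, encoded by Prf1. Serglycin, the proteoglycan core protein encoded by Srgn, packs these basic proteins into the granule, and Nkg7 encodes a granule membrane protein. After contact with a target cell the granule fuses with the plasma membrane, and granzymes that enter the target cleave substrates that lead to its death. Such granules are best known from CD8 T cells and NK cells, but CD4 T cells can also express granzymes and perforin.

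Here 10 granule genes were followed in a mouse Th1 clone, a CD4 helper T cell line of the type that makes interferon gamma: Gzma, Gzmb, Gzmc, Gzmd, Gzme, Gzmf, Gzmk, Prf1, Nkg7 and Srgn. Members were all probe sets that the platform annotation gives to a single one of these symbols. This found 9 probe sets of 8 genes, of 10833 probe sets of 8251 genes with 1 symbol in all. Gzme appeared only on a probe set shared with Gzmd, and no probe set was listed for Nkg7, so no value is assigned to either. The control group is the quiescent clone (2 arrays), and the anergic group is the clone after induction of anergy, a state of poor response, with plate-bound antibody to CD3 (2 arrays). The sources used here do not give the strain, the clone's name, the length of treatment or the interval before harvest. Whether the pair of arrays in a group stems from independent cultures is not labelled, and all p-values below then reflect array spread that may be technical.

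The T cell label fitted Cd3e, which lay between 5974 and 10102, and Cd4, between 3942 and 5106, on the 4 arrays, while Cd8a lay between 6.2 and 18. Of 9 listed T cell markers, 8 had a probe set, of which 7 were bright enough to be tested and 1 was not. Limma called 0 of the 7, with 2 at an unadjusted p under 0.05, against 11.3% of all fitted probe sets. Of 13 listed NK and CD8 T cell markers with a probe set, 6 were bright enough to be tested. Their summed intensity was 9344 and 15083 in control and 10510 and 13325 in anergic cells, most of it from the lectin receptor genes Klrd1 and Klrc1. Arrays that share a number in their titles resembled each other across groups, and no label says what the number stands for. For the members, the differences within each number are therefore given beside the difference between groups.

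The 5 granzyme genes from Gzmb to Gzmf lie in a single cluster on chromosome 14, in the RefSeq order Gzme, Gzmd, Gzmg, Gzmn, Gzmf, Gzmc and Gzmb, between Ctsg and Atp12a. They are related genes. Below are the 150 bases before an annotated RefSeq start of each (assembly GRCm38.p6), written 5′ to 3′. They show how alike these stretches are, with each TGTGGT or its reverse complement, a core letter pattern of Runx factors, in capitals. The Gzmc window and the edge of the Gzmd window lie inside the RefSeq span of their gene. Transcripts and probes were not compared, so this likeness does not show how far the array can tell the genes apart.

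Gzmb, chr14:56262335-56262484, minus strand: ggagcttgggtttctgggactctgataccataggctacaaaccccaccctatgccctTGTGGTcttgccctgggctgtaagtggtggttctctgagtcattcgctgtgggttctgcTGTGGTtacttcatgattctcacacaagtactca
Gzmc, chr14:56234658-56234807, minus strand: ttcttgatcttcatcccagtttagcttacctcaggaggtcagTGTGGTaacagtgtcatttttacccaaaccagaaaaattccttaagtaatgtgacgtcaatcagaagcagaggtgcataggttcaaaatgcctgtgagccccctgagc
Gzmd, chr14:56132594-56132743, minus strand: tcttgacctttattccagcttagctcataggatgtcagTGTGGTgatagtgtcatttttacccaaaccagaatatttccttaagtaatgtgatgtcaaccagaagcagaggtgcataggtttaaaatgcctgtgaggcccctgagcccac
Gzme, chr14:56120626-56120775, minus strand: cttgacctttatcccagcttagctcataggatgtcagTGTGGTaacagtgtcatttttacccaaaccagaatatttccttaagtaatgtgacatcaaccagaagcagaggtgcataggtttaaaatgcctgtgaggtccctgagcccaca
Gzmf, chr14:56211408-56211557, minus strand: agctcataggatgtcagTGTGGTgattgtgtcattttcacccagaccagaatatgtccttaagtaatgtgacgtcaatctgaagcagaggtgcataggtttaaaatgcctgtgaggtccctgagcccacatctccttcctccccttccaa

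Over the 250 bases before the start, Gzmd and Gzme were 94.8% identical in 251 aligned columns. Gzmc was 81.3% identical to Gzmd and 81.8% to Gzme, and Gzmf was 75.4% identical to Gzme. Gzmb stood apart, with 47.3% to 52.2% identity to the other 4. Letter patterns were searched on both strands in the same 250 bases of all 11 windows of the 10 genes, as Srgn has 2 annotated starts. TGTGGT was present in 9 of 11 windows, against 14% of 32851 windows of all genes. All genes but Gzmk had it, Srgn in only 1 of its windows, and the near copies in the cluster are not independent cases. The cyclic AMP response element TGACGTCA was found in Gzmc and Gzmf (1.55% of all windows). The T-box core GGTGTGA was found in Nkg7 and Gzmk (3.33% of all windows), TGANTCA of AP-1 in Gzmb (6.75%), TTCNNNGAA of Stat factors in Nkg7 (7.02%) and TATAAA in Srgn (12.4%). None of these patterns contains another, and a match is a description of letters, not of a factor bound there.

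None of the granzyme genes, nor Prf1 or Srgn, passed the test between anergic and control cells, and Srgn was the only member that was bright on all 4 arrays. Of the 9 probe sets, 3 passed the filter on low values (Gzmb, Gzmd and Srgn) and 6 lay below it (Gzma, Gzmf, Gzmk, Prf1 and both of Gzmc). The filter kept probe sets whose mean log2 value lay above the 40th percentile, which corresponds to an intensity of 92.4. Limma called 0 of the 3, with 0 at an unadjusted p under 0.05. Of the 7453 fitted probe sets, 1.34% were called after Benjamini-Hochberg adjustment (0.912% higher and 0.429% lower in anergic cells), and 11.3% had an unadjusted p under 0.05. The number of calls over all probe sets was 100. It was 283 without control array 1, 344 without control array 2, 43 without anergic array 1 and 61 without anergic array 2, and members called stayed at 0 each time. With no filter, limma called 0 of the 9 (adjusted p between 0.476 and 0.982), with 1 at an unadjusted p under 0.05, Gzmf. Of all 12422 probe sets, 0.475% were called in that fit and 8.69% had an unadjusted p under 0.05, so 1 of 9 lies near the background. The median log2 difference of all fitted probe sets was -0.0855, and it was 0.0209 after each array was centred on its median.

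**Figure D1:**
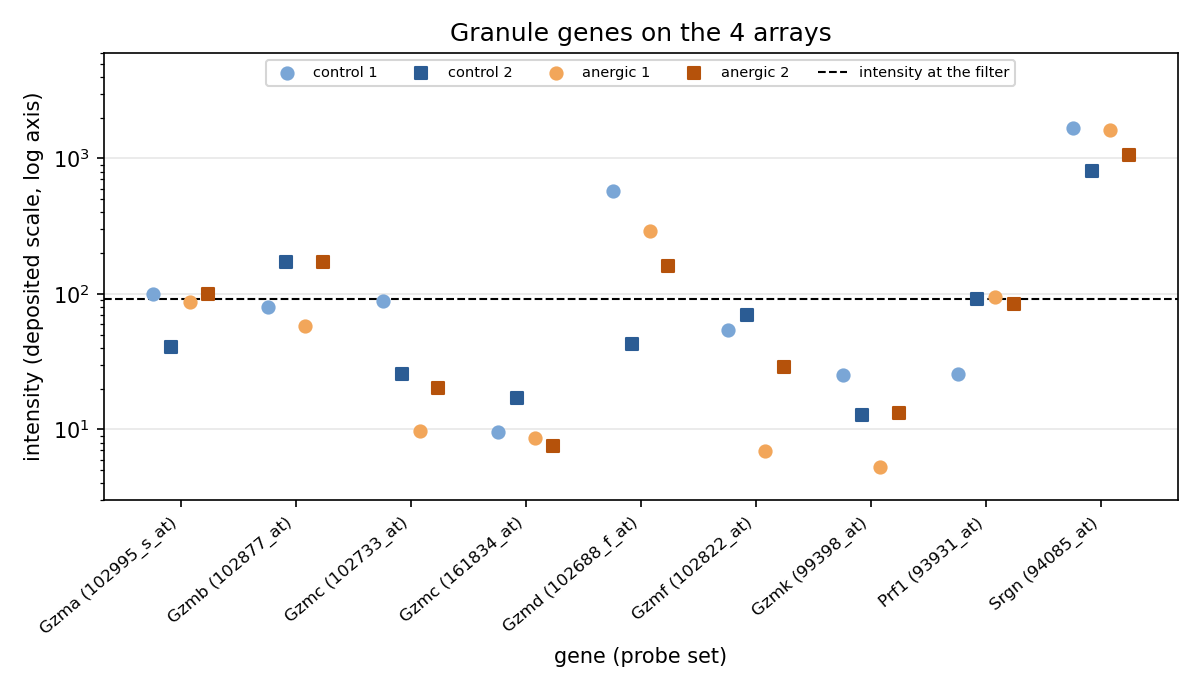
Deposited intensity (log axis) of each of the 9 granule gene probe sets on control arrays 1 and 2 and anergic arrays 1 and 2, 1 point per array, with the intensity of 92.4 that corresponds to the filter as a dashed line. Srgn lies between 807.8 and 1665 on every array, and the other probe sets lie at 571.5 or below.

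Srgn, the serglycin gene, was at 1665 and 807.8 on control arrays 1 and 2 and at 1616 and 1063 on anergic arrays 1 and 2. The groups overlapped, and in each group array 1 was the brighter. The log2 difference, anergic minus control, was 0.17 ± 0.37 (SE, adjusted p = 0.929 by limma), with a 95% confidence interval from -0.69 to 1.03. The interval is wide in both directions, so it does not show that the level was equal. In such bulk RNA, fewer cells with a transcript and less of it per cell cannot be told apart. Within arrays of the same number the difference was -0.04 for number 1 and 0.38 for number 2. Its sign turned without control array 2 (-0.34) and without anergic array 1 (-0.12), and without control array 1 it was 0.68.

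Gzmb encodes the granzyme that cleaves after aspartate and activates caspases, and it is the best known granzyme of killer cells. Its intensity was 80.5 and 172.1 on control arrays 1 and 2 and 58 and 171.6 on anergic arrays 1 and 2. The arrays fell together by number and not by group, with both arrays numbered 2 above both arrays numbered 1. The log2 difference between groups was -0.17 ± 0.57 (SE, adjusted p = 0.96 by limma), with a 95% interval from -1.47 to 1.14. Within number 2 the difference was -0.0036, and within number 1 it was -0.33. Its sign turned without control array 2 (0.27) and without anergic array 1 (0.43).

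Gzmd is a granzyme gene found in mice among the cluster copies, and its probe set carries the suffix f_at in its name, which marks a family of like sequences. It was at 571.5 and 43 on control arrays 1 and 2, and at 292.8 and 160.9 on anergic arrays 1 and 2. The control arrays lay far apart, and both anergic values lay between them. The log2 difference was 0.25 ± 0.86 (SE, adjusted p = 0.962 by limma), with a 95% interval from -1.72 to 2.22. It was -0.90 within number 1 and 1.40 within number 2, opposite in sign. Leaving out control array 1 gave 1.78, and the sign turned without control array 2 (-1.28) and without anergic array 1 (-0.13). When the array median served as pseudocount the value was -0.02.

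The probe set annotated to both Gzme and Gzmd, which is no member by the rule, was at 301.1 and 27.7 on control arrays 1 and 2 and at 156.7 and 25.5 on anergic arrays 1 and 2. It had the same order of arrays 1 over arrays 2 in each group as the Gzmd probe set. It lay below the filter, and signals of these near copies cannot be told apart here.

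Gzmc and Gzmf, further members of the cluster, had lower values in anergic cells but lay below the filter. Gzmf was at 54.2 and 70.4 on control arrays 1 and 2 and at 6.9 and 28.8 on anergic arrays 1 and 2. Both anergic arrays lay below both control arrays. With no filter its log2 difference was -0.99 ± 0.37 (SE, unadjusted p = 0.0279 and adjusted p = 0.476 by limma), and it was -1.21 within number 1 and -0.78 within number 2. The brighter Gzmc probe set was at 88.6 and 25.8 in control and at 9.7 and 20.3 in anergic cells, a log2 difference of -0.88 ± 0.41 (SE, adjusted p = 0.633 with no filter). It was -1.60 within number 1 and -0.15 within number 2, and control array 1 was the high one. The other Gzmc probe set was at 9.5 and 17.2 in control and 8.7 and 7.5 in anergic cells, which is dim throughout, with differences of -0.03 within number 1 and -0.34 within number 2. These are the 3 of 9 probe sets whose groups did not overlap, all with anergic cells lower, where 22.9% of all 12422 probe sets did so. In 0 of 9 both anergic arrays lay above both control arrays, against 13.5% of all probe sets. The count rests on 2 genes of 1 cluster, so the 3 are not independent, and detection calls were not used here.

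**Figure D2:**
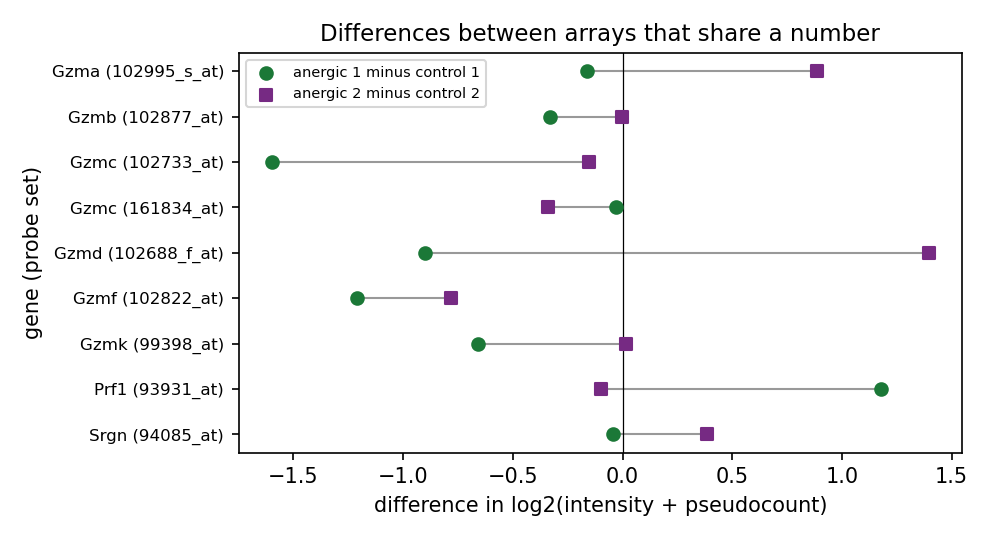
Difference in log2(intensity + pseudocount) between anergic and control arrays of the same number for each granule gene probe set, with circles for number 1, squares for number 2 and a line joining them. Gzmf and both Gzmc probe sets lie below 0 for both numbers, and Gzmd goes from -0.90 to 1.40.

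Gzma and Gzmk lie next to each other on chromosome 13 and encode tryptases, which cleave after basic residues. Gzma was at 100.3 and 40.3 on control arrays 1 and 2 and at 86.7 and 99.1 on anergic arrays 1 and 2. Control array 2 was the low one, and the other 3 arrays lay close together. With no filter the difference was 0.36 ± 0.50 (SE, adjusted p = 0.95 by limma), and it was -0.16 within number 1 and 0.88 within number 2. Gzmk was at 25.2 and 12.8 in control and at 5.3 and 13.3 in anergic cells, among the dimmest members. Its difference was -0.32 ± 0.23 (SE, adjusted p = 0.815 with no filter), with -0.66 within number 1 and 0.02 within number 2, and the groups overlapped.

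Prf1, the perforin gene, was at 25.8 and 92.4 on control arrays 1 and 2 and at 95.2 and 84.5 on anergic arrays 1 and 2. Control array 1 was low and the other 3 were alike, so the groups overlapped. The difference was 0.54 ± 0.52 (SE, adjusted p = 0.892 with no filter). It was 1.18 within number 1 and -0.10 within number 2. Genes that adjoin the members gave little more. Pald1, next to Prf1, differed by 0.30 ± 0.71 on the log2 scale (SE, adjusted p = 0.935), and Vps26a, a retromer gene next to Srgn, by 0.06 ± 0.27 (SE, adjusted p = 0.969). Gzmg and Ctsg, which adjoin cluster members, lay below the filter.

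**Figure D3:**
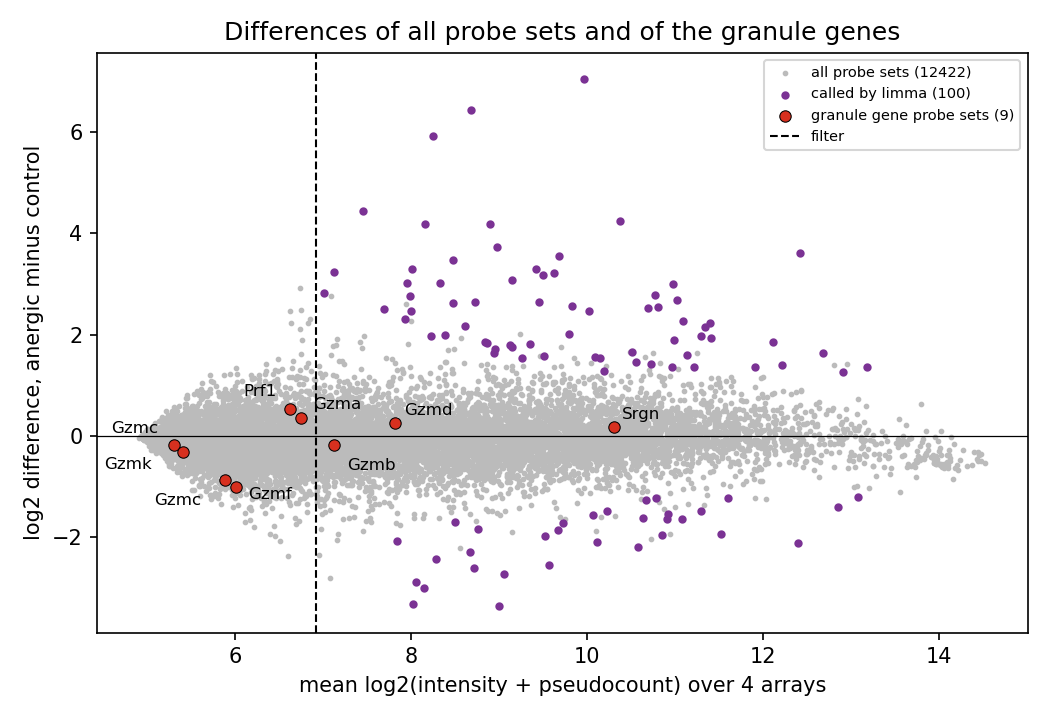
Log2 difference, anergic minus control, of all 12422 probe sets against their mean log2(intensity + pseudocount) over the 4 arrays. The 9 granule gene probe sets are in red, the 100 called by limma in purple, and 6 of the 9 lie left of the dashed line that marks the filter.

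Granule killing needs more than the stored proteins, and genes of the other steps were read from 10 lists by role. Of 142 listed genes, 92 were fitted, and limma called 1 of them, the lysosomal aspartic protease gene Ctsd, higher in anergic cells, and 0 lower, a share near the background of 1.34%. That share belongs to the fit without a replicate block. With a block for the array number, 18 of 92 were called, against 761 of all 7453 fitted probe sets. No label says what the number stands for, and the count also moved when an array was left out. Ctsd was at 4899 and 5007 on control arrays 1 and 2 and at 11382 and 12507 on anergic arrays 1 and 2, with no overlap. Its log2 difference was 1.26 ± 0.21 (SE, adjusted p = 0.0297 by limma). The call did not hold in fits that left out anergic array 1 (1.33, with an adjusted p of 0.302) or anergic array 2 (1.20, with 0.296). It also did not hold with centring (1.37, with 0.0701), with no filter (0.0764) or with no intensity trend (0.189).

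Processing and inhibition of granzymes came next. Ctsc encodes the cathepsin that removes the inhibitory dipeptide from newly made granzymes. It was at 369.2 and 370.7 in control and at 437.8 and 329.6 in anergic cells, a log2 difference of 0.04 ± 0.31 (SE, adjusted p = 0.981). Cst7, named after its values were seen, encodes cystatin F, an inhibitor of that protease. It was at 2148 and 1925 in control and at 4195 and 3382 in anergic cells, with no overlap (log2 difference 0.88 ± 0.23, SE, adjusted p = 0.157). It did not pass with all 4 arrays, and its difference was 0.96 without control array 1 and 0.80 without control array 2. In the list of cathepsins and progranzyme processing, 1 of 8 fitted genes was called, the median log2 difference was 0.25, and 6 were higher by sign. The serpin gene Serpinb6a was at 2063 and 1791 in control and at 4400 and 3236 in anergic cells (log2 difference 0.96 ± 0.25, SE, adjusted p = 0.147). Its difference was 1.06 without control array 1 and 0.86 without control array 2. Serpinb9, whose product inhibits granzyme B and protects the killer cell from its own protease, was at 606.4 and 472.5 in control and at 502.2 and 445.9 in anergic cells (-0.17 ± 0.29, SE, adjusted p = 0.914). Among 3 fitted genes of other granule serine proteases 0 were called, and 9 more lay below the filter. Tpsb2 was at -0.66 and Elane at -0.53, values that rest on anergic array 1. They were -0.08 and -0.10 without it, and -1.23 and -0.97 without anergic array 2. The other Tpsb2 probe set lay below the filter, at -0.05 ± 0.48 (SE, with no filter).

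**Figure D4:**
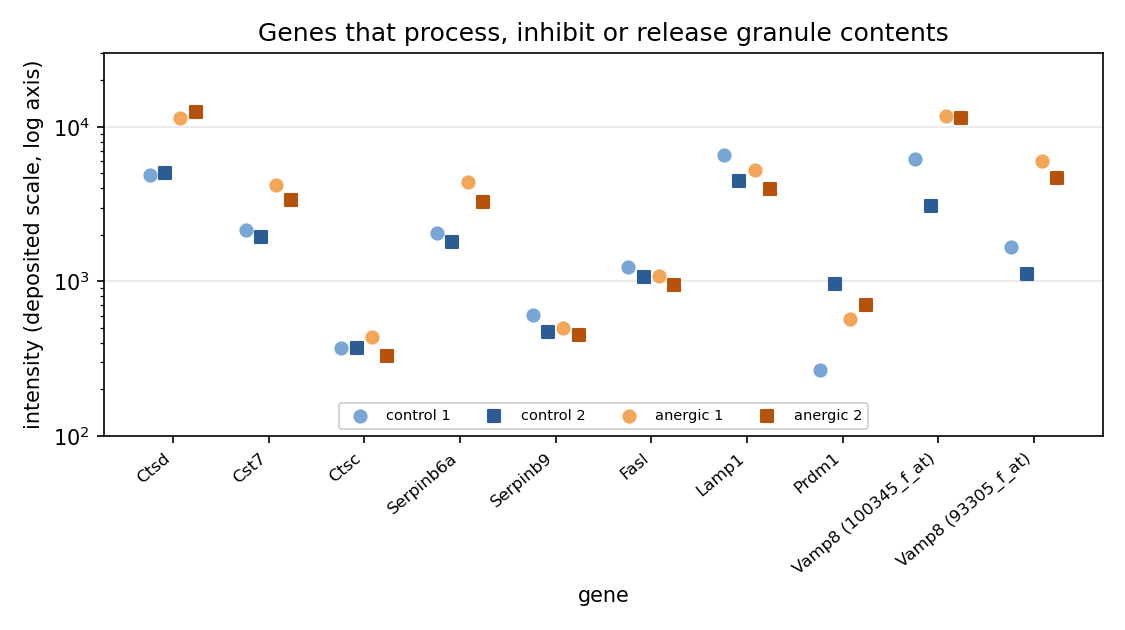
Deposited intensity (log axis) of genes that process, inhibit or release granule contents on the 4 arrays, 1 point per array. Both anergic points of Ctsd, Cst7, Serpinb6a and both Vamp8 probe sets lie above both control points, while those of Ctsc, Serpinb9, Fasl, Lamp1 and Prdm1 do not.

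Release was read from 18 fitted genes of granule transport and exocytosis, of 23 listed. Rab27a, Unc13d, Stx11, Sytl1 and Sytl2 had no probe set of their own symbol, so they were not read. Limma called 0 of the 18 by their brightest probe sets, with 3 at an unadjusted p under 0.05 (median log2 difference 0.07). Such counts, here and in the lists that follow, stand beside the 11.3% of all fitted probe sets that had an unadjusted p under 0.05. Vamp8, a membrane fusion gene, was at 6192 and 3084 in control and at 11771 and 11356 in anergic cells on that probe set, a log2 difference of 1.40 ± 0.32 (SE, adjusted p = 0.103). That probe set was at 1.90 without control array 1 and at 0.90 without control array 2. Both Vamp8 probe sets carry the suffix f_at, which marks a family of like sequences, and what else they read was not tested. The dimmer Vamp8 probe set rose from 1661 and 1111 to 6026 and 4659 (1.94 ± 0.27, SE, adjusted p = 0.0157 by limma). That call was lost without anergic array 1 (1.76, adjusted p = 0.104), with centring (2.05, adjusted p = 0.103) and without the intensity trend (adjusted p = 0.0991). Ap3b1, a subunit of the adaptor that sorts proteins to lysosome-related organelles, was at 0.73 ± 0.22 (SE, adjusted p = 0.232). Coro1a, the remaining gene under 0.05, was lower in anergic cells, at -0.75 ± 0.29 (SE, adjusted p = 0.359). Of 7 fitted granule membrane genes 0 were called in limma, with 3 at an unadjusted p under 0.05 (median -0.13). Atp6v1a and Tcirg1, both parts of the proton pump that acidifies the granule, had values of opposite sign (0.96 and -0.78, adjusted p = 0.103 and 0.224). Atp6v1a was at 0.97 without control array 1 and at 0.95 without control array 2. Its other fitted probe sets were at 0.61 and 0.47. Igf2r, the remaining gene under 0.05, was at 0.82 ± 0.28 (SE, adjusted p = 0.284). Lamp1, the membrane protein exposed when granules fuse, was at 6582 and 4431 in control and at 5226 and 3927 in anergic cells (-0.25 ± 0.27, SE, adjusted p = 0.84).

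Granule killing has a parallel route through death ligands, and limma called 0 of its 9 fitted genes, with 1 at an unadjusted p under 0.05 (median 0.08). Fasl, the Fas ligand gene, was at 1234 and 1069 in control and at 1087 and 943.9 in anergic cells (-0.18 ± 0.25, SE, adjusted p = 0.892). Ltb and Lta, the lymphotoxin genes, were at -0.98 and 0.64 (adjusted p = 0.0791 and 0.53). The dimmer fitted Lta probe set was at -0.04 ± 0.57 (SE, adjusted p = 0.989). Ltb passed with quantile normalization (-0.92, with 0.0482) and with 1 probe set per gene (0.0493). It was at -0.93 without control array 1 and at -1.02 without control array 2. The brighter Lta probe set was at 1.09 without anergic array 1 and at 0.19 without anergic array 2. Among 11 fitted granzyme substrates 0 were called in limma, with 2 at an unadjusted p under 0.05 (median -0.19). These were Hmgb2 (-1.48 ± 0.34, SE, adjusted p = 0.101) and Apex1 (0.98 ± 0.26, SE, adjusted p = 0.159), which encode nuclear proteins of the complex that granzyme A attacks. Hmgb2 was at -1.83 without control array 1 and at -1.14 without control array 2.

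Upstream of the granule genes, 0 of 16 fitted transcription factor genes were called in limma, with 3 at an unadjusted p under 0.05 (median 0.12). Of 21 listed, 17 had a probe set. Tbx21, Runx3, Zeb2 and Tcf7 had no probe set of their own symbol, so these factors were not read. Stat5a, which relays signals of the IL-2 family, was at 1.02 ± 0.24 (SE, adjusted p = 0.107) and Irf4 at 1.75 ± 0.58 (SE, adjusted p = 0.278). Id2, the remaining gene under 0.05, was lower in anergic cells, at -0.60 ± 0.23 (SE, adjusted p = 0.362). Stat5a was at 1.22 without control array 1 and at 0.82 without control array 2. Irf4 was at 2.64 without control array 1, at 0.86 without control array 2 and at 1.16 without anergic array 1. Prdm1, which encodes Blimp-1, was at 266.8 and 954.8 in control and at 570.2 and 705.1 in anergic cells, a wide spread within the control group (0.30 ± 0.51, SE, adjusted p = 0.913). Eomes, the T-box factor gene of killer cells, lay below the filter. Its brighter probe set was at 31.6 and 56.2 in control and at 29.1 and 16 in anergic cells. The dimmer one was at 17.9 and 32.7 in control and at 9.9 and 4.6 in anergic cells. Both anergic arrays lay below both control arrays on each, as on 22.9% of all 12422 probe sets (adjusted p = 0.798 and 0.548 by limma with no filter). Of 11 fitted cytokine receptor and Jak kinase genes 0 were called in limma, with 2 at an unadjusted p under 0.05 (median 0.19), Il2ra at 1.17 and Jak2 at 0.81 (adjusted p = 0.24 and 0.251). Il2ra was at 1.61 without control array 2 and at 0.74 without control array 1. In the list of enzymes that build the sugar chains of serglycin, 0 of 7 were called in limma and 1 had an unadjusted p under 0.05 (median 0.05), Papss1 at 0.67, with Slc35b2 at 0.35 (adjusted p = 0.377 and 0.708).

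**Figure D5:**
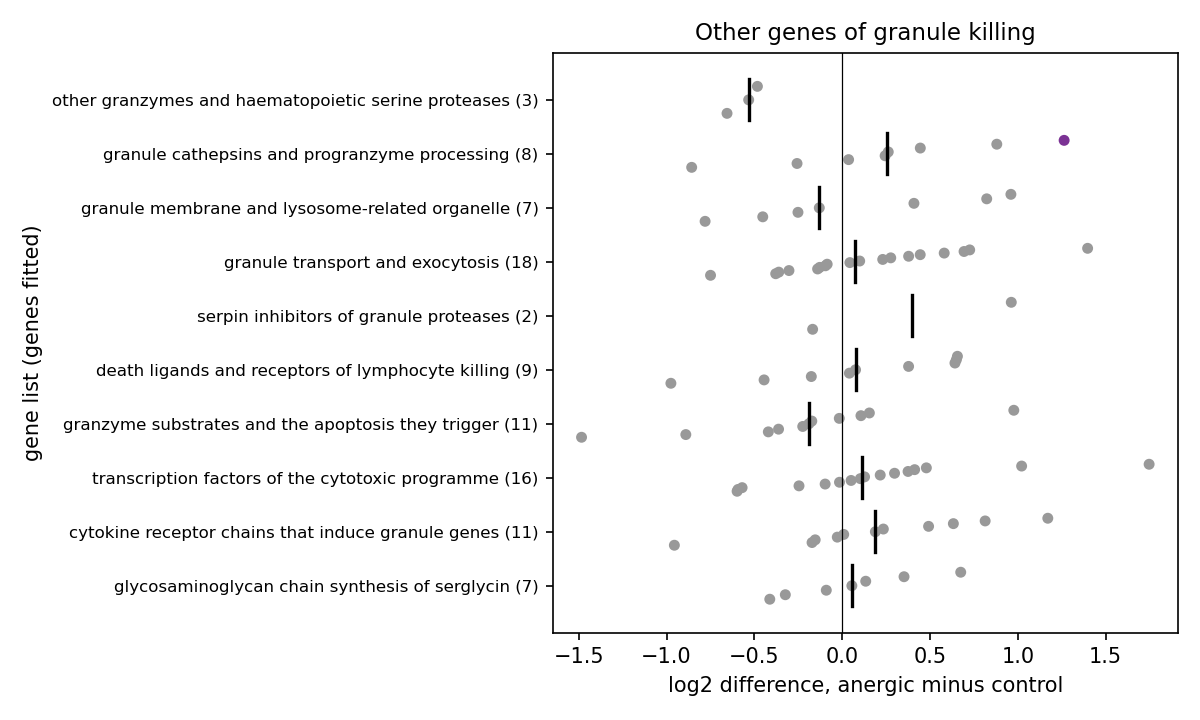
Log2 difference, anergic minus control, of each fitted gene in the 10 lists by role, 1 point per gene with a vertical bar at the list's median. The 1 gene called by limma, Ctsd, is in purple at 1.26, and the medians lie between -0.53 and 0.40.

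Of 21 fitted markers of cell types other than T cells, limma called 1, where 1.34% of all fitted probe sets were called. It was Cd68, which encodes a lysosomal membrane protein and is used as a macrophage marker. Its probe set was at 71 and 91.3 in control and at 497.6 and 531.5 in anergic cells (2.31 ± 0.35, SE, adjusted p = 0.0216 by limma). Both control values lie below the intensity of 92.4, so Cd68 passed the filter through the anergic arrays, and its size depends on the pseudocount (1.48 with the array median, 2.66 with 1). The call did not hold in fits that left out anergic array 1 (2.35, with an adjusted p of 0.141) or anergic array 2 (2.26, with 0.117), or with no filter (0.0661). The 7 fitted macrophage and dendritic cell markers of 11 summed to 1342 and 1894 in control and to 1742 and 2510 in anergic cells, and the other 6 did not pass. Without Cd68 the sums were 1271 and 1803 in control and 1244 and 1978 in anergic cells. By sign, 5 of the 7 fitted markers were higher and 2 lower in anergic cells (median log2 difference 0.31). Among the 4 below the filter, Itgam lay between 8.2 and 33.6 and Adgre1 at 36.9 or below. Whether other cells had a part in the values of Ctsd was not tested.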

How the data were processed

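The deposited table holds linear intensities, 1 for each of 12488 probe sets on 4 arrays of biotin-labelled cRNA, per the labels. The sources used here do not give the array software or the background correction, and detection calls were not used. The deposited arrays had been scaled, since the mean after trimming 2% at each end was 500.3 on all 4. Controls (66) were left out. Of the rest, 10833 probe sets had 1 symbol in the platform annotation, 396 several and 1193 were not listed. The RefSeq table (GRCm38.p6) gave names and gene order. Coordinates are printed only for promoter windows, on that assembly, as no build is named for the array. Promoters are from the RefSeq table of the same assembly, which held all 10 members.

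Values were transformed as log2(intensity + 29.15), the pseudocount being the median over arrays of the 20th percentile, so fold changes of dim genes are understated. Probe sets with a mean above the 40th percentile were fitted with limma 3.58.1 in R 4.3.3 (lmFit, eBayes with an intensity trend, two-sided, Benjamini-Hochberg over all fitted, threshold 0.05), with 2 residual and 6.17 prior degrees of freedom. With 2 arrays a group, the smallest two-sided p of an exact permutation test is 0.333, and the number of arrays limits the precision. List genes were read through their brightest fitted probe set. Named genes are the members, their fitted neighbours, a fixed set of 10 genes, and per list those called or else the 2 with the smallest p. Of the fixed set, 7 had a probe set, and Rab27a, Tbx21 and Runx3 did not. Coro1a, Igf2r and Id2 were named besides, after their values were seen, as the remaining genes of their lists with an unadjusted p under 0.05. Members and lists were chosen with earlier results of these data known. Tables and figures were made with Python 3.11.15, and promoters were aligned with Biopython 1.88.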

Additional observations from a re-analysis of the deposited data

How the results depend on the processing

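The count of members called was 0 under all 13 alternatives. The count over all probe sets, 100, was 64 with centring (52 higher, 12 lower, in place of 68 and 32), 59 with no filter, 38 without the intensity trend and 43 to 344 with an array left out. The count of pathway genes, 1, was 2 with quantile normalization and with 1 probe set per gene, 0 with centring, with no filter and without the intensity trend, and 0 to 11 with an array left out. With the replicate block the counts were 761 of 7453 fitted probe sets, 18 of 92 pathway genes and 0 of 3 member probe sets. Named genes that did not pass without the block and passed with it were Cst7, Serpinb6a, Vamp8 (brighter probe set), Ap3b1, Atp6v1a, Tcirg1, Ltb, Hmgb2, Apex1, Stat5a, Irf4, Il2ra and Jak2, with adjusted p in the block fit between 0.000199 (Irf4) and 0.0268 (Ap3b1). The block leaves fewer residual degrees of freedom than the 2 of the main fit, so the p-values of the block fit rest on little spread. No label says what the numbers pair, and with 2 numbers the data cannot settle it. Deviations from the group means correlated at r = 0.537 over 7453 probe sets. Signs turned with an array left out for Gzmb (-0.77 to 0.43), Gzmd (-1.28 to 1.78), Srgn (-0.34 to 0.68), Prdm1 (-0.57 to 1.16), Pald1 (-0.66 to 0.87), Lamp1 (-0.54 to 0.032), Serpinb9 (-0.34 to 0.0022), Ctsc (-0.15 to 0.23) and Vps26a (-0.074 to 0.20). The sign of Gzmd was also negative when the array median served as pseudocount (-0.016). The cause of these shifts was not tested. A fit with 1 array in a group assumes that it varies like the other group. Dim signals limit what can be said of 6 of the 9 member probe sets.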
